A study of Mus musculus with 16 samples.

Results

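The nuclear genes of respiratory complex I were followed through 16 expression arrays of the embryonic mouse palate. They were taken as all genes whose symbol starts with Nduf and that the platform annotation gives at least 1 probe set of their own, which found 44 genes (88 probe sets) of 18193 genes (34945 probe sets) in all. The 44 include Ndufa4 and Ndufa4l2, whose products are placed outside complex I, and complex I genes below means any of the 44. Where a gene has several probe sets, the one of highest average signal stands for it. Of the 44, 43 passed the filter on low values (at least 3 arrays at a log2 value of 4), as did 11115 genes in all, and Ndufb4 did not.

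The study concerned the metabolism of the palatal mesenchyme when neural crest cells lack the kinase Erk2. Mutants were Erk2 fl/fl; Wnt1-Cre embryos, with 3 arrays at E13.5 and 5 at E14.5. Controls were Erk2 fl/fl embryos without Cre, which the sample titles call wild-type, with 3 arrays at E13.5 and 5 at E14.5. All carry the strain label C57BL/6J and the floxed Erk2 allele. Wnt1-Cre acts in the neural crest lineage, so epithelium, muscle and vessels of the same tissue keep Erk2 in mutants. Labels split the E14.5 arrays into batches: in each genotype, replicates 1 and 2 are batch 1 and replicates 3, 4 and 5 are batch 2. The E13.5 arrays have no such label.

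Complex I oxidises NADH, passes the electrons to ubiquinone and pumps protons across the inner mitochondrial membrane. Its arm in the matrix holds the N module, where NADH is oxidised, and the Q module, where ubiquinone is reduced. Its membrane arm has a proximal part next to the Q module and a distal part, and assembly factors help build the enzyme without staying in it. Some core subunits come from mitochondrial DNA, and the rest, with all accessory subunits and assembly factors, are nuclear.

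Promoters are shown for 3 genes: Ndufv1, the single gene that passed the genotype test at E14.5, Ndufaf8, which differed most between the E14.5 batches, and Ndufaf4, which had the smallest p at E13.5. Each runs 250 bases before to 50 bases after the annotated start, read in the direction of the gene, from RefSeq (GRCm38.p6). Capitals mark exact matches to the motifs described next. The Ndufv1 window is chr19:4012706-4013005 on the minus strand, the Ndufaf8 window chr11:120098684-120098983 on the plus strand, and the Ndufaf4 window chr4:24897833-24898132 on the plus strand.
Ndufv1: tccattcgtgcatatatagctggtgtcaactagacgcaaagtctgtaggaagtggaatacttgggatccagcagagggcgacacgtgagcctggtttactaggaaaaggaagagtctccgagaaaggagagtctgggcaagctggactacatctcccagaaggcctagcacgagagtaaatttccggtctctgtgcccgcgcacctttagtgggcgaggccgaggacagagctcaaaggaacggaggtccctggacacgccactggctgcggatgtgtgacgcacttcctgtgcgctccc
Ndufaf8: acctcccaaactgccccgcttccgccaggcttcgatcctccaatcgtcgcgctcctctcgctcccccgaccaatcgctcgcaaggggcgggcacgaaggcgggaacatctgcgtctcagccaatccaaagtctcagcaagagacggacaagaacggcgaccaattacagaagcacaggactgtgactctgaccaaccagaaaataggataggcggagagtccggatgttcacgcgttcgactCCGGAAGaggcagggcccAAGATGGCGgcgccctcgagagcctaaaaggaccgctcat
Ndufaf4: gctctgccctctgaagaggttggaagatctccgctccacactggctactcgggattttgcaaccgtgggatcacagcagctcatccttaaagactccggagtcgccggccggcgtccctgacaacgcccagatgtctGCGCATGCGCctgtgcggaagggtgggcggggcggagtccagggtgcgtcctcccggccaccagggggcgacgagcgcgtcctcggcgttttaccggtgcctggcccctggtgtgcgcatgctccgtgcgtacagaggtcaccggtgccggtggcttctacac

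Exact matches to 4 motifs of factors known for nuclear genes of mitochondrial proteins were looked for on both strands. The table held promoters of 39 of the 44 genes. Ndufa2, Ndufa4l2, Ndufaf6, Ndufb9 and Ndufs1 were not matched. The NRF1 motif GCGCATGCG lay in the promoters of 3 of 39 genes (Ndufa8, Ndufaf4 and Ndufaf5), against 1.75% of all 32851 promoters of the table and 2.69% of those of genes on the array. In Ndufaf4 it matched on both strands, with overlap. The ETS motif CCGGAAG, which GABPA binds, lay in 6 of 39 (Ndufaf1, Ndufaf8, Ndufb6, Ndufb7, Ndufs3 and Ndufs8), against 8.86% of all promoters and 13% of those of array genes. The YY1 motif AAGATGGCG lay in 5 of 39 (Ndufa9, Ndufaf8, Ndufc1, Ndufs4 and Ndufs7), against 1.4% of all promoters and 2.09% of those of array genes. TCAAGGTCA, a motif of the oestrogen-related receptors, lay in 0 of 39, against 0.423% of all promoters and 0.342% of those of array genes. Ndufaf8 carried an ETS match followed by a YY1 match, and Ndufv1 carried none of the 4. A match is a description of the letters and no measure of binding.

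Within groups, pairs of arrays had correlations of 0.993 to 0.997 over the tested genes, and none were identical. Of 17 palatal mesenchyme markers on the array, 16 were above a log2 value of 4 on all arrays, and Alx4 was the lowest at a mean of 1.68. Erk2 expression was not analysed here, so the genotypes are those of the labels. How many embryos an array holds is not stated, so how much of the spread behind each p-value is technical is not known. Each E14.5 group held both sexes by Xist and Y-linked transcripts, so its arrays did not all hold the same RNA. The median over all probe sets of an array was 1.63 to 1.66 on E14.5 arrays and 3.39 to 3.44 on E13.5 arrays. Differences between stages therefore carry this shift, and whether the stages were normalized apart is not stated.

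Nearly all genes of the enzyme were well above background. Mean log2 signals reached 10 or more for 17 genes, lay between 9 and 10 for 13, between 8 and 9 for 4 and between 6 and 8 for 7. The 7 genes between 6 and 8 were all Nduf assembly factors, and only Ndufaf8 of that group was higher, at 8.12. Ndufa4l2, Ndufb1 and Ndufb4 were under 4. Probe sets bind with different strength, so these signals do not rank the genes. Ndufc2, a membrane arm subunit, had the highest signal of the 44. Its values at E13.5 were 10.87, 10.93 and 10.95 in mutants and 10.92, 10.88 and 10.87 in controls. At E14.5 they were 10.97, 10.91, 10.96, 10.87 and 10.90 in mutants and 10.84, 10.97, 10.92, 10.90 and 10.90 in controls. Mutants and controls overlapped at both stages, and the stages overlapped too.

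Ndufb4, of the distal membrane arm, had the lowest signal. It read 2.12, 1.84 and 2.08 in E13.5 mutants and 1.97, 1.97 and 1.98 in E13.5 controls. At E14.5 it read 0.82, 0.70, 0.72, 0.69 and 0.81 in mutants and 0.94, 0.67, 0.69, 0.96 and 0.77 in controls. These values belong to a probe set near background, and both probe sets that Ndufb4 shares with Ndufb4b and Ndufb4c were far higher at E14.5. One averaged 9.84 in mutants and 9.77 in controls, and the other 9.61 in mutants and 9.60 in controls. Ndufs6 and Ndufa11 had only probe sets shared with a second gene and are not among the 44. The Ndufs6 probe set averaged 9.64 in mutants and 9.67 in controls at E13.5, and 9.66 in mutants and 9.65 in controls at E14.5. The brighter of 2 Ndufa11 probe sets averaged 9.35 in mutants and 9.31 in controls at E13.5, and 9.14 in mutants and 9.03 in controls at E14.5. The dimmer one averaged 4.02 in mutants and 3.86 in controls at E13.5, and 1.86 in mutants and 1.87 in controls at E14.5.

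Replicates of these genes lay close together. The median SD within a group was 0.048 in mutants and 0.043 in controls at E13.5 (n = 3 each), and 0.066 in mutants and 0.061 in controls at E14.5 (n = 5 each). Ndufv1 had the smallest SD of the 43 in E13.5 controls (0.0075) and in E14.5 mutants (0.020). Ndufaf3, an assembly factor of the Q module, had the largest in E14.5 mutants (0.192) and E14.5 controls (0.163).

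At E13.5 no complex I gene passed the test between mutants and controls. Of 43 genes, 0 were called at an adjusted p under 0.05 in limma (Benjamini-Hochberg over all 11115 genes), where 0.099% of all genes were called. At an unadjusted p under 0.05 the count was also 0 of 43, where 9.54% of all genes were counted. Differences ran from -0.12 for Ndufaf4 to 0.12 for Ndufa4l2 on the log2 scale, mutant minus control, and 23 of 43 were above 0, where 31.5% of all genes were. Ndufa4l2 is placed outside complex I, and the highest difference of the other genes was 0.08 for Ndufa3. The median difference was 0.005 for the 43 genes and -0.044 for all genes tested. The sign of the median followed the scaling. With each array centred on its median over all probe sets it was -0.03, with 10 of 43 above 0, and centred on the genes tested it was 0.07, with 38 of 43 above 0. The shares of all genes above 0 move with the centring too and are not given, so the centred counts have no comparison.

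By position in the enzyme, the E13.5 medians were 0.00 for 9 N module genes, 0.02 for 5 Q module genes, 0.02 for 8 genes of the proximal membrane arm and 0.00 for 10 tested genes of the distal membrane arm. The 8 Nduf assembly factors had a median of -0.03, with 3 above 0 and 5 below. None of these groups held a called gene.

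The smallest p at E13.5 belonged to Ndufaf4, an assembly factor that acts with Ndufaf3 on the Q module. It read 7.77, 7.76 and 7.67 in mutants and 7.93, 7.80 and 7.81 in controls. All 3 mutants lay below all 3 controls, with a difference of -0.12 ± 0.06 (log2, moderated SE) and an adjusted p of 0.549 in limma. A dimmer Ndufaf4 probe set had a difference of -0.17 ± 0.08 at E13.5. It read 6.426, 6.588 and 6.46 in mutants and 6.605, 6.687 and 6.705 in controls, again without overlap. Ndufa8, a membrane arm subunit on the intermembrane space side, was the other gene whose genotypes did not overlap, with mutants above controls. That made 2 of 43 genes, where 17.9% of all genes did not overlap.

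Ndufa5, an accessory subunit of the Q module, read 9.49, 9.65 and 9.53 in mutants and 9.64, 9.65 and 9.65 in controls. One mutant was level with the controls and the others were below them, with a difference of -0.09 ± 0.06 and an adjusted p of 0.681 in limma. Ndufa3, of the proximal membrane arm, read 10.83, 10.74 and 10.84 in mutants and 10.76, 10.69 and 10.72 in controls. Its ranges overlapped, with a difference of 0.08 ± 0.06 and an adjusted p of 0.681 in limma.

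**Figure D1:**
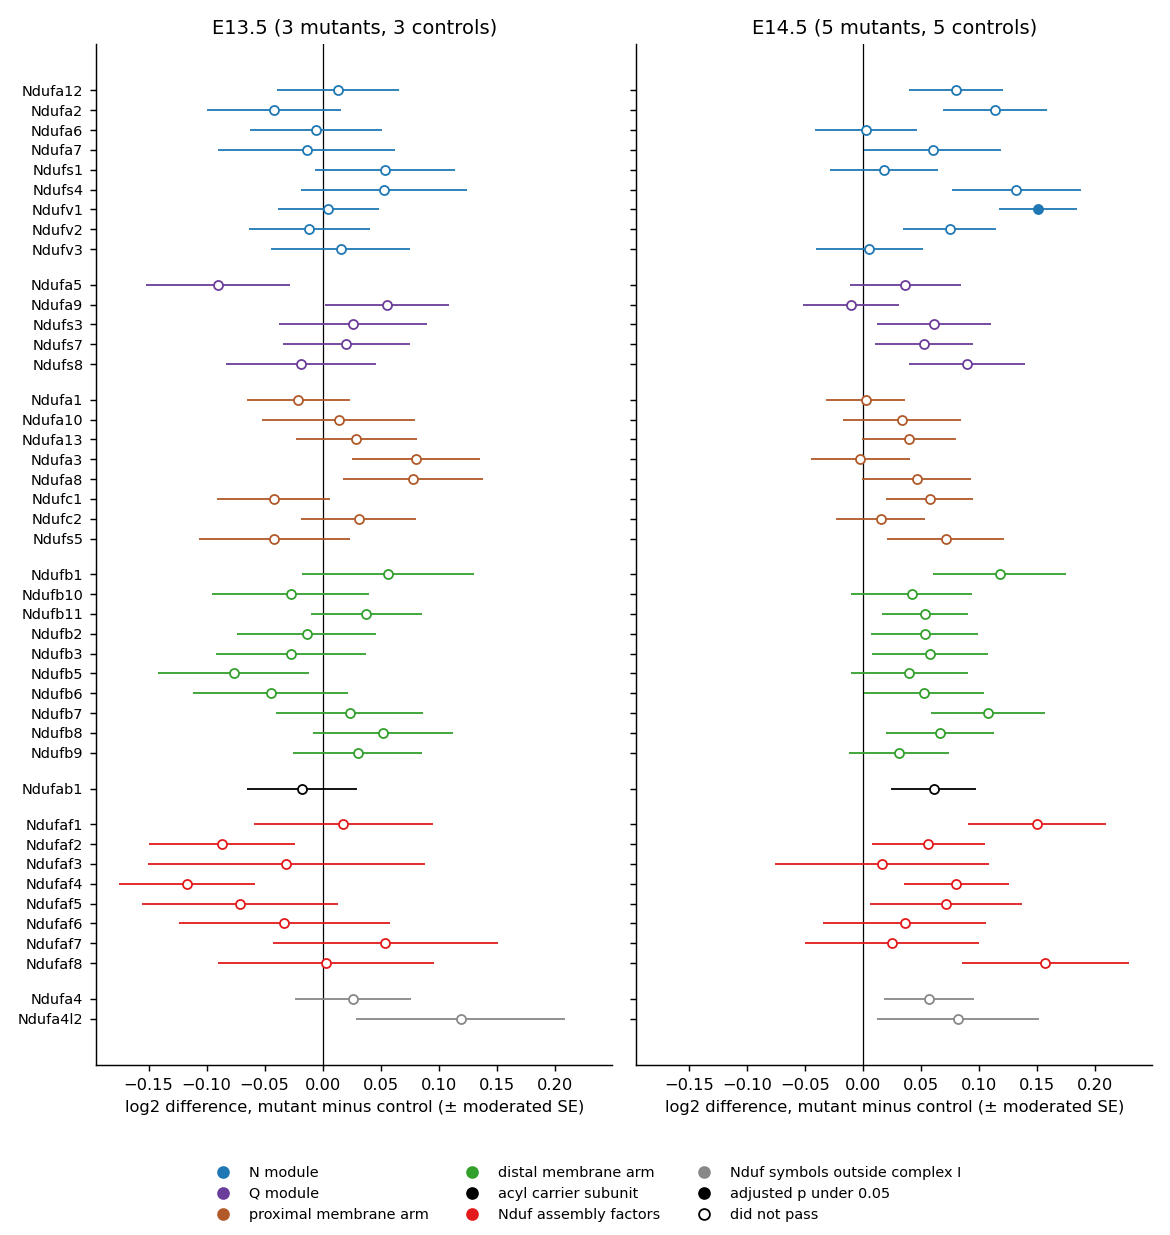
Log2 difference, mutant minus control, of the 43 tested Nduf genes at E13.5 (left) and E14.5 (right), with moderated standard errors from limma, grouped and coloured by place in complex I. Filled points passed an adjusted p of 0.05: none at E13.5 and Ndufv1 alone at E14.5, where 41 of 43 points lie above 0.

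At E14.5 1 complex I gene was higher in mutants, and the others were shifted by little. Ndufv1, the N module subunit that carries FMN and takes the electrons from NADH, was called. That is 1 of 43 genes, where 2.63% of all genes were called in either direction and 1.48% were called higher. At an unadjusted p under 0.05, 6 of 43 genes were higher and 0 were lower, where 10.3% of all genes were higher and 7.02% lower. Of the 43, 41 had a difference above 0, where 56% of all genes did, and the median was 0.06 for the 43 and 0.01 for all genes tested.

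Ndufv1 read 9.60, 9.64, 9.59, 9.60 and 9.62 in E14.5 mutants. In E14.5 controls it read 9.44, 9.48, 9.41, 9.44 and 9.52. All 5 mutants lay above all 5 controls, with a difference of 0.15 ± 0.03 (log2, moderated SE), which is 1.11-fold, and an adjusted p of 0.0341 in limma. It was the only one of the 43 genes whose genotypes did not overlap, where 4.41% of all genes did not. At E13.5 the same probe set read 9.68, 9.68 and 9.65 in mutants and 9.66, 9.67 and 9.67 in controls, with overlap and a difference of 0.00 ± 0.04.

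On the probe set that represents Ndufv1, its difference was alike in the batches, at 0.16 ± 0.05 in batch 1 and 0.15 ± 0.04 in batch 2. The difference between them was 0.01 ± 0.07 (p of 0.882 in limma, unadjusted). The call sits close to the threshold. It was lost in 20 of 35 alternative analyses, with the adjusted p of limma between 0.0107 and 0.654 over all 35. Leaving out single arrays lost it for E13.5 controls 1 and 2, E14.5 mutants 1, 2, 4 and 5 and E14.5 controls 1, 2, 3 and 4, with adjusted p between 0.0509 and 0.0822 in limma. With each array centred on the genes tested the adjusted p was 0.0533 in limma.

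Ndufv1 has 3 probe sets. A second one, lower in signal, had a difference of 0.20 ± 0.07 at E14.5 and the third, the only one without a letter suffix (which marks probes shared by several transcripts or with other sequences), one of 0.05 ± 0.05. On the third, mutants read 8.12, 8.11, 7.97, 8.04 and 8.08, and controls read 8.02, 7.84, 8.06, 8.04 and 8.10. There the genotypes overlapped. They overlapped on the second as well, where control 5 read 9.052 and mutants 1, 2 and 3 read 9.046, 8.975 and 9.028. On the third, both batch 1 mutants lay above both batch 1 controls, and in batch 2 the genotypes overlapped. On the second, batch 1 mutants read 9.046 and 8.975 and batch 1 controls 8.967 and 8.933. In batch 2 it read 9.028, 9.112 and 9.102 in mutants and 8.698, 8.635 and 9.052 in controls. Batch effects of these probe sets were not tested. So the separation of the genotypes, the size of the Ndufv1 difference and its likeness between the batches depended on the probe set.

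**Figure D2:**
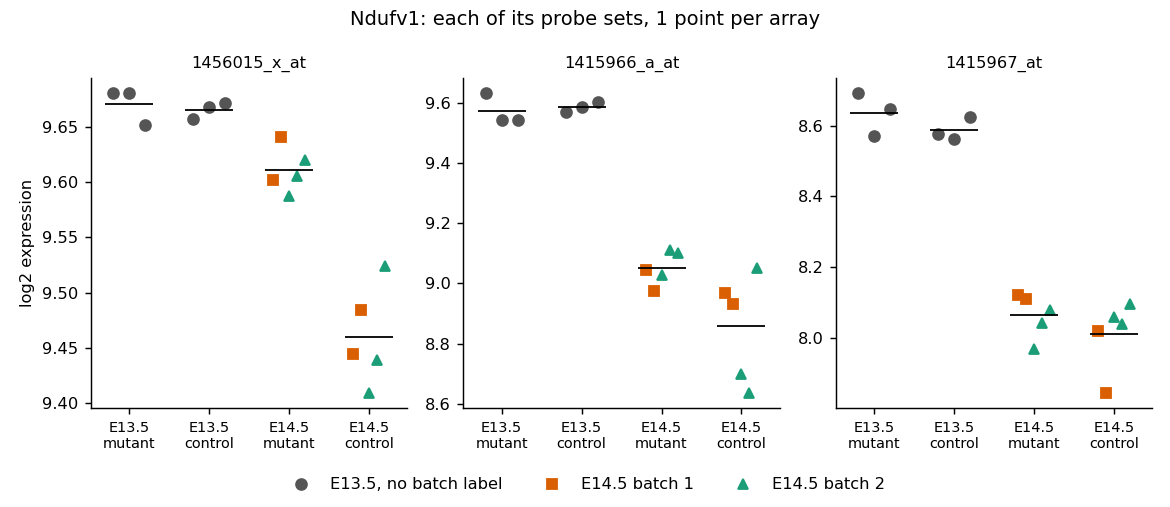
Log2 expression of the 3 Ndufv1 probe sets on every array, with a line at each group's mean and the E14.5 batches marked by shape and colour. Axes differ between panels and do not start at 0. On the left probe set, which represents the gene, E14.5 mutants (9.59 to 9.64) lie above E14.5 controls (9.41 to 9.52). On the middle and right ones the genotypes overlap at E14.5.

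The other 5 genes with an unadjusted p under 0.05 at E14.5 were Ndufa2 and Ndufs4 of the N module, Ndufb7 of the distal membrane arm, and the assembly factors Ndufaf1 and Ndufaf8. Ndufa2, an accessory subunit, read 10.18, 10.14, 10.11, 10.04 and 10.09 in mutants and 9.93, 9.90, 10.05, 10.01 and 10.10 in controls. Most mutants were above most controls, with overlap, and the difference was 0.11 ± 0.04 with an adjusted p of 0.203 in limma. Ndufaf1, which helps build the membrane arm, read 6.85, 6.92, 6.85, 6.76 and 6.84 in mutants and 6.70, 6.70, 6.88, 6.55 and 6.63 in controls. Control 3 lay among the mutants and the other 4 controls lay below them all, with a difference of 0.15 ± 0.06 and an adjusted p of 0.211 in limma. Differences were 0.13 for Ndufs4, 0.11 for Ndufb7 and 0.16 for Ndufaf8, and none passed the test.

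By position, the E14.5 medians were 0.07 for the N module (9 of 9 above 0, 1 called), 0.05 for the Q module (4 of 5), 0.04 for the proximal membrane arm (7 of 8), 0.05 for the distal membrane arm (10 of 10) and 0.06 for the Nduf assembly factors (8 of 8). Ndufab1, the mitochondrial acyl carrier protein, was at 0.06. The genes below 0 were Ndufa9 at -0.01 and Ndufa3 at -0.002. The other probe sets of these genes that reached the filter level numbered 33, and 31 of them were higher in E14.5 mutants, with 1 each of Ndufa12 (-0.02) and Ndufa7 (-0.02) lower. At E13.5, 21 of the 33 were higher in mutants. Probe sets of one gene share its RNA and are no replicates.

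The E14.5 differences were larger in batch 1 than in batch 2 for most of the genes. In batch 1 all 43 genes had a difference above 0, where 55.4% of all genes did, with a median of 0.14, and 34 had both mutants above both controls, where 27.6% of all genes did. At an unadjusted p under 0.05, 24 of 43 were higher, where 12.2% of all genes were, and 1 was called at an adjusted p under 0.05, where 0.387% of all genes were. In batch 2, 20 of 43 were above 0, where 53.2% of all genes were, with a median of -0.01. There 0 of 43 were called by limma, where 0.891% of all genes were, and Ndufv1 alone had an unadjusted p under 0.05, where 12.6% of all genes did. Arrays of the genotypes did not overlap in batch 2 for 3 of 43 genes (Ndufv1 above, Ndufb2 and Ndufs3 below), where 14.8% of all genes did not.

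Tested directly, the difference between the batch effects (batch 1 minus batch 2) was above 0 for 39 of 43 genes, where 53.9% of all genes were. It had an unadjusted p under 0.05 for 16 of 43, all higher, where 7.12% of all genes were higher. With the adjustment over all genes 0 of 43 passed in limma, as did 0 of all genes. Module medians in batch 1 and in batch 2 were 0.16 and 0.02 for the N module, 0.15 and -0.03 for the Q module, 0.13 and -0.03 for the proximal membrane arm, 0.15 and -0.01 for the distal membrane arm, and 0.17 and -0.003 for the assembly factors. Ndufb5, Ndufb6 and Ndufa4l2 went the other way, with larger differences in batch 2, and Ndufs1 was at 0.02 in both.

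Ndufaf8, an assembly factor that works with Ndufaf5, differed most between the batches. In batch 1 it read 8.27 and 8.16 in mutants and 7.94 and 7.68 in controls. In batch 2 it read 7.96, 7.99 and 8.02 in mutants and 7.99, 7.97 and 8.05 in controls. Mutants stood above controls in batch 1 and among them in batch 2. The difference was 0.41 ± 0.08 in batch 1, with an adjusted p of 0.0476 in limma, and -0.01 ± 0.06 in batch 2. The batch effects differed by 0.42 ± 0.10, with an adjusted p of 0.288 in limma. A dimmer Ndufaf8 probe set, near the filter level at E14.5, had a smaller gap in batch 1. There it read 4.02 and 3.859 in mutants and 3.804 and 3.678 in controls. In batch 2 it read 3.738, 3.738 and 3.884 in mutants and 3.747, 3.849 and 3.891 in controls. Its batch effects were not tested.

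Ndufs4, an accessory subunit at the joint of the N and Q modules, read 8.85 and 8.68 in mutants and 8.45 and 8.47 in controls in batch 1. In batch 2 it read 8.63, 8.73 and 8.65 in mutants and 8.64, 8.64 and 8.65 in controls. Its difference was 0.30 ± 0.07 in batch 1, with an adjusted p of 0.0608 in limma, and 0.02 ± 0.05 in batch 2. A dimmer Ndufs4 probe set did not show this contrast between the batches. In batch 1 it read 4.97 and 4.85 in mutants and 4.73 and 4.57 in controls. In batch 2 it read 4.83, 4.87 and 4.75 in mutants and 4.49, 4.51 and 4.72 in controls. Its E14.5 difference was 0.25 ± 0.06, and that of another Ndufs4 probe set was 0.03 ± 0.05. The difference of Ndufa2 was 0.24 ± 0.06 in batch 1 against 0.03 ± 0.04 in batch 2, and the core Q module subunit Ndufs8 had 0.22 ± 0.07 in batch 1 against -0.0001 ± 0.05 in batch 2.

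**Figure D3:**
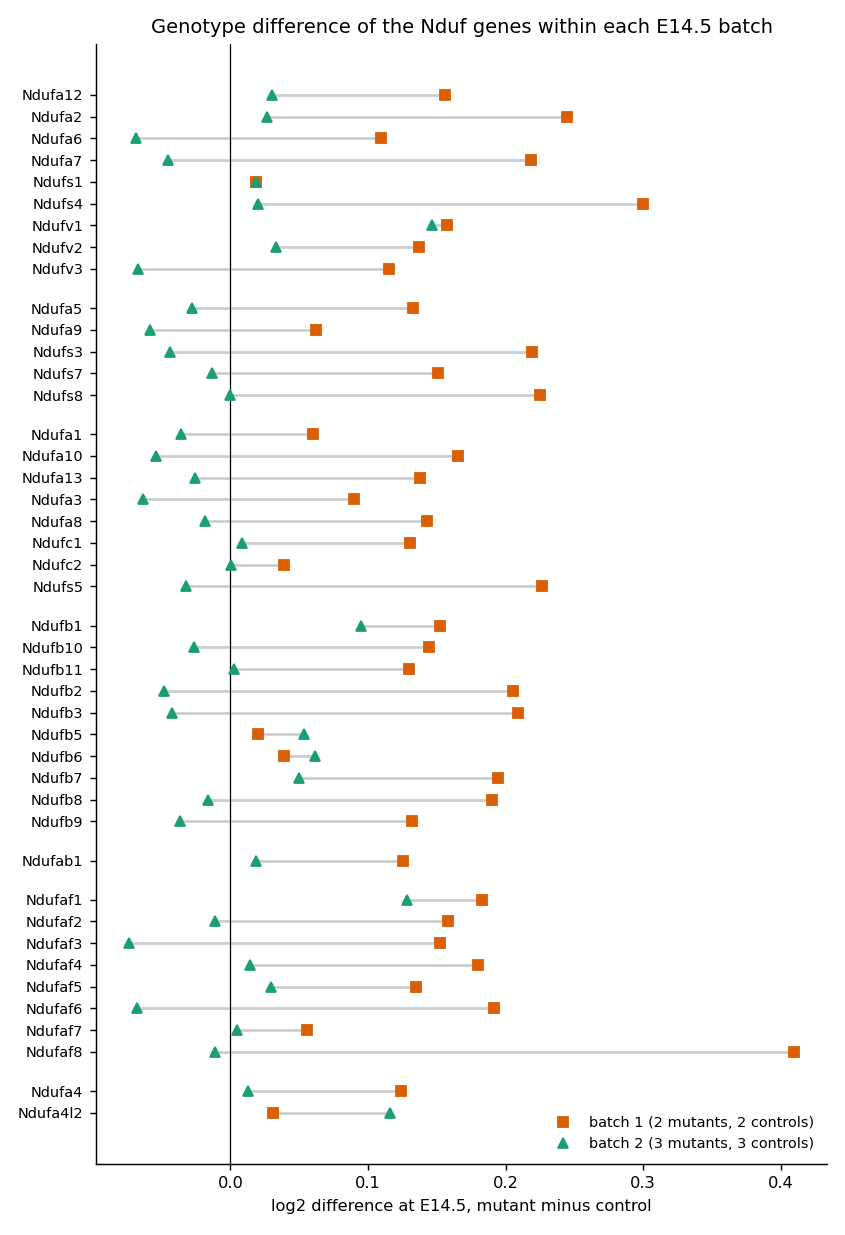
Log2 difference at E14.5, mutant minus control, of each tested Nduf gene in batch 1 (squares, 2 mutants and 2 controls) and batch 2 (triangles, 3 mutants and 3 controls), in the order of place in the complex. All 43 squares lie above 0 and 20 of 43 triangles do, and Ndufaf8 has the widest gap, at 0.41 and -0.01.

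The mean over the 43 genes showed both sides of batch 1 apart from batch 2. It was 8.967 and 8.931 in batch 1 mutants and 8.806 and 8.794 in batch 1 controls. In batch 2 it was 8.853, 8.861 and 8.874 in mutants and 8.880, 8.848 and 8.862 in controls. So the batch 1 mutants lay above every batch 2 array and the batch 1 controls below every one. Between single arrays of batch 1, 38 to 41 of 43 genes were higher in the mutant, and between single arrays of batch 2, 11 to 25 of 43 were. At E13.5 the mean was 9.203, 9.192 and 9.189 in mutants and 9.214, 9.177 and 9.187 in controls, with overlap.

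Sex and muscle signal also differed among the E14.5 arrays. By Xist and Y-linked transcripts, both batch 1 mutants were female and both batch 1 controls male, so sex and genotype cannot be told apart in batch 1. In batch 2, the females (mutant 3 and control 4) had means of 8.853 and 8.848, and the males lay between 8.861 and 8.880. Over both batches, females made up 3 of the 5 mutants and 1 of the 5 controls, and all E13.5 arrays were female. When sex was added as a term within E14.5, the median difference was 0.05, with 36 of 43 genes above 0, and Ndufv1 had an adjusted p of 0.0687 in limma.

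Of 27 skeletal muscle markers 21 were tested, with 0 called. All 21 were higher in mutants at both stages, where 31.5% of all genes were at E13.5 and 56% at E14.5. Their mean signal was 6.84 and 5.88 in batch 1 mutants and 4.72 and 5.83 in batch 1 controls. In batch 2 it was 5.62, 5.41 and 5.89 in mutants and 4.70, 5.77 and 6.13 in controls. Myf6 had the lowest mean of the 27, at 1.21. At E13.5 the muscle mean was 6.89, 6.56 and 6.73 in mutants and 6.26, 5.98 and 6.20 in controls, without overlap, where the complex I means overlapped. Without the E14.5 controls of lowest muscle signal, 1 and 3, the median difference was 0.05 with 39 of 43 above 0, and Ndufv1 had an adjusted p of 0.12 in limma. The part of muscle in the complex I differences was not tested. In whole tissue, a change in the number of cells of a type and in RNA per cell cannot be told apart.

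Of 20 oral epithelium markers 19 were tested. E14.5 mutants exceeded controls for all 19 and 10 were called, where 56% of all genes were higher and 1.48% were called higher. The markers had medians of 0.35 in batch 1 and 0.37 in batch 2. Their mean signal was 7.28 to 7.58 in E14.5 mutants and 6.90 to 7.06 in E14.5 controls, without overlap. The lowest of the list, Cldn6, averaged 3.76 over all arrays. On the probe set that represents it, Ndufv1 was higher in the same arrays in both batches. The part of epithelium in its difference was not tested.

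**Figure D4:**
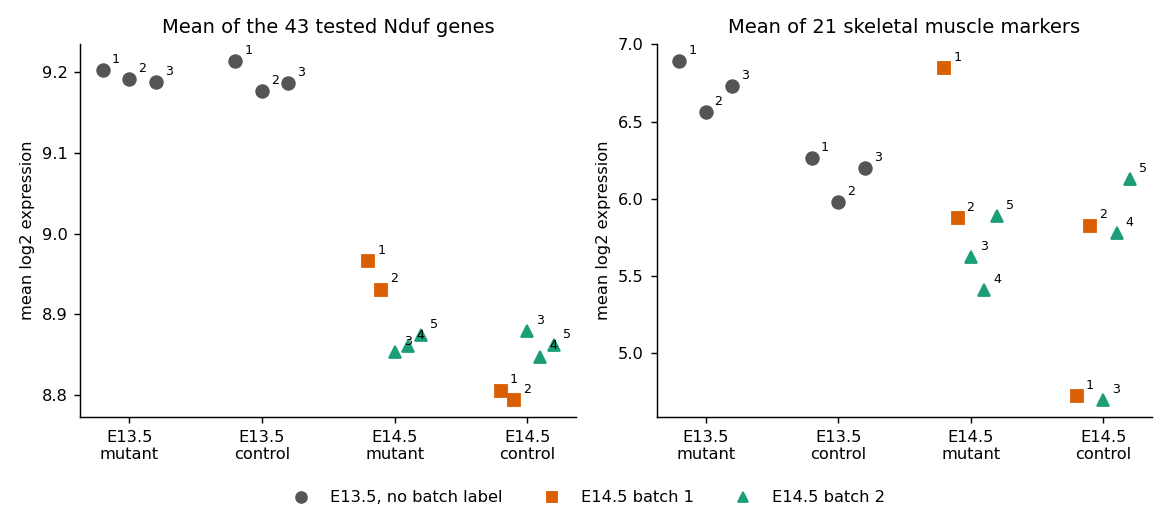
Mean log2 expression per array of the 43 tested Nduf genes (left) and of 21 skeletal muscle markers (right), with replicate numbers beside the points and the E14.5 batches marked. Axes do not start at 0. In the left panel the batch 1 mutants (8.967 and 8.931) lie above and the batch 1 controls (8.806 and 8.794) below all batch 2 arrays.

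Whether the genotype difference changed between the stages was tested as the E14.5 difference minus the E13.5 difference. Of 43 genes 0 were called in limma, where 0.117% of all genes were. At an unadjusted p under 0.05 there were 2 of 43, where 10.4% of all genes were: Ndufaf4 at 0.20 ± 0.07 (adjusted p of 0.38 in limma) and Ndufv1 at 0.15 ± 0.06 (adjusted p of 0.382 in limma). Ndufa2 followed at 0.16 ± 0.07 (adjusted p of 0.481 in limma). At E14.5 Ndufaf4 read 7.46, 7.42, 7.30, 7.37 and 7.32 in mutants and 7.28, 7.24, 7.33, 7.36 and 7.26 in controls, and the genotypes overlapped. Of the 43, 35 were above 0, where 69.8% of all genes were, and the median of 0.07 was near that of all genes, 0.06. Centred on all probe sets 41 of 43 were above 0, and centred on the genes tested 16 of 43 were, without a share of all genes to compare.

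Between stages, most complex I genes read lower at E14.5 in the deposited values, as most genes did. In mutants 36 of 43 passed in limma (10 higher and 26 lower at E14.5), where 85.3% of all genes passed (13.4% higher and 71.9% lower). In controls 34 of 43 passed (7 higher and 27 lower), where 86.5% of all genes passed (11.6% higher and 74.9% lower). The lower ones include Ndufb1 and Ndufa4l2, which were under the filter level on every E14.5 array. The median difference, E14.5 minus E13.5, was -0.23 for the 43 and -0.56 for all genes in mutants, and -0.30 for the 43 and -0.63 for all genes in controls. Genes of low signal fell most on these arrays, so the comparison was also made within ranges of signal. At a mean of 10 or more, the median was -0.21 for 17 complex I genes and -0.08 for all 440 genes in mutants, and -0.22 for the 17 and -0.09 for the 440 in controls. Between 8 and 10 the medians were close, at -0.18 for 17 complex I genes and -0.16 for all 1876 genes in mutants. In controls they were -0.20 and -0.19. Between 6 and 8 they were -0.57 for 7 complex I genes and -0.37 for all 3809 genes in mutants, and -0.55 and -0.44 in controls. Centring each array turns the medians of the 43 round. In mutants the median became 1.56 (all probe sets) or 0.27 (genes tested), and in controls 1.45 or 0.29. Centred on all probe sets, 41 of 43 passed as higher and 2 as lower in each genotype. Centred on the genes tested, 31 passed as higher and 5 as lower in mutants, and 31 as higher and 6 as lower in controls. Centring moves every gene of an array by the same amount, and shares of all genes under the centrings are not given, here or below. Such counts therefore do not set complex I genes apart from other genes. The values of single genes that follow are as deposited, with the centrings named where they differ. By rank among all genes of an array, 18 of 43 genes stood higher at E14.5 in mutants and 19 of 43 in controls, with median changes of -0.22 and -0.26 percentile points.

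Ndufab1, the acyl carrier protein that the membrane and matrix arms both hold, rose most. It read 10.63, 10.62, 10.49, 10.56 and 10.58 in E14.5 mutants and 10.05, 9.998 and 10.05 in E13.5 mutants. Controls read 10.51, 10.50, 10.51, 10.56 and 10.51 at E14.5 and 10.09, 10.02 and 10.03 at E13.5. The stages did not overlap in either genotype, with differences of 0.55 ± 0.04 in mutants (adjusted p of 8.9e-09 in limma) and 0.47 ± 0.04 in controls (adjusted p of 5.13e-08 in limma). Ndufs5 of the proximal membrane arm (0.45 in mutants, 0.34 in controls), Ndufb6 of the distal arm (0.34 and 0.24) and the assembly factor Ndufaf2 (0.33 and 0.18) rose too. So did Ndufb5, Ndufb10 and the core subunit Ndufs7, which makes 7 genes. Their brightest own probe sets rose in both genotypes, under both centrings as well. The next brightest own probe sets of Ndufab1, Ndufb5 and Ndufs7 fell as deposited, without overlap in either genotype. E14.5 mutants read 5.103 to 5.492 for Ndufab1, 9.603 to 9.681 for Ndufb5 and 7.95 to 8.122 for Ndufs7. E13.5 mutants read 6.008 to 6.264, 10.154 to 10.305 and 8.746 to 8.941. That of Ndufb6 was lower too, with overlap in mutants. The stage differences of these dimmer probe sets were not tested. Probe sets shared with a pseudogene were also lower as deposited. The one of Ndufs5 averaged 9.56 in mutants at E14.5 and 10.02 at E13.5, and the one of Ndufab1 averaged 9.07 in mutants at E14.5 and 9.46 at E13.5. Ndufa2, Ndufa5 and Ndufs8 passed in mutants only. Whether such changes differ between the genotypes is the same contrast as the difference between the stages' genotype effects, where 0 of 43 passed.

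As deposited, the same 26 genes were lower at E14.5 in both genotypes, and Ndufv1 passed in controls alone. The direction of most of them followed the scaling. Centred on all probe sets, 24 of the 26 passed as higher in each genotype. Centred on the genes tested, 14 passed as higher in each genotype, while 5 in mutants and 6 in controls passed as lower. By rank within the array, 1 of the 26 stood higher at E14.5 in mutants (Ndufaf1) and 3 in controls (Ndufa9, Ndufaf7 and Ndufs1).

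Ndufaf6, an assembly factor, had as-deposited differences of -1.02 in mutants and -1.08 in controls. They were -0.51 in mutants and -0.50 in controls when centred on the genes tested, and 0.77 in mutants and 0.66 in controls when centred on all probe sets. Of the 8 Nduf assembly factors, 7 were lower in both genotypes as deposited, and 8 were higher when centred on all probe sets. Ndufa7 of the N module was at -0.73 in mutants and -0.81 in controls as deposited, at -0.23 in both genotypes when centred on the genes tested, and at 1.05 in mutants and 0.94 in controls when centred on all probe sets. Ndufb7 had the same pattern of signs, at -0.63 in mutants and -0.72 in controls as deposited. Ndufa10, at -0.57 in mutants and -0.59 in controls as deposited, did not pass when centred on the genes tested. Ndufa4, a former complex I symbol now placed with cytochrome c oxidase, was at -0.29 in mutants and -0.32 in controls as deposited, and passed as higher under both centrings.

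Ndufb1, a small subunit of the distal membrane arm, and Ndufa4l2, a paralogue of Ndufa4 that responds to hypoxia, passed the filter on low values through their E13.5 arrays alone, so a stage difference was a condition of their being tested and their stage test supports nothing. Ndufb1 read 2.95, 2.83, 2.83, 2.89 and 2.84 in E14.5 mutants and 5.68, 5.72 and 5.74 in E13.5 mutants. Controls read 2.82, 2.65, 2.71, 2.66 and 2.91 at E14.5 and 5.74, 5.53 and 5.71 at E13.5. All E14.5 arrays of both genes lay under the filter level of 4. Both genes have means under 4, and all 1814 tested genes of that range had median stage differences of -2.14 in mutants and -2.18 in controls.

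**Figure D5:**
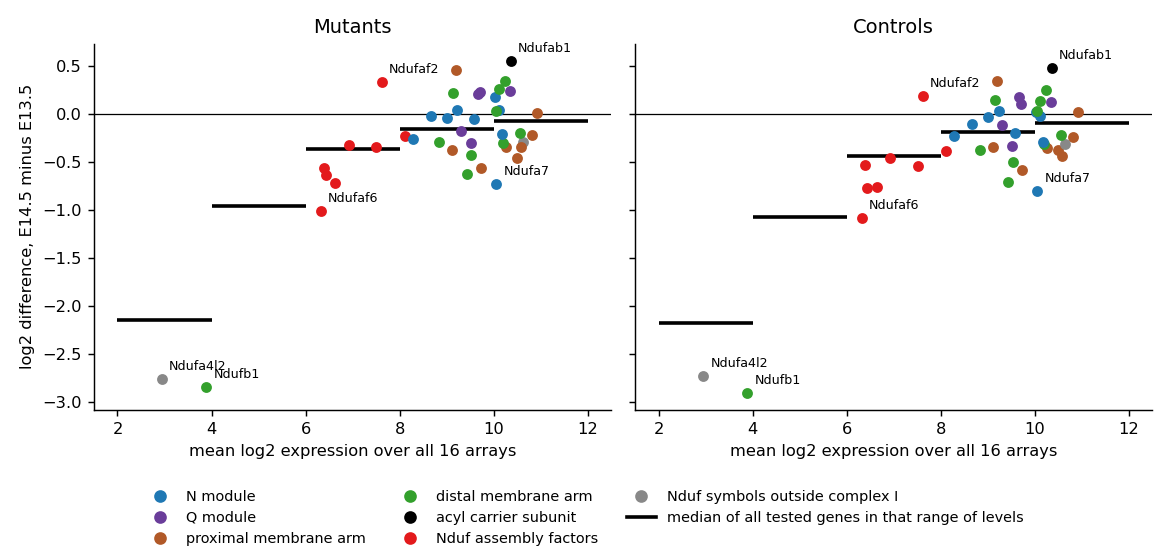
Log2 difference, E14.5 minus E13.5, of the 43 tested Nduf genes against their mean log2 expression over all 16 arrays, in mutants (left) and controls (right). Black lines give the median of all tested genes in each range of mean expression, which is -2.14 in mutants and -2.18 in controls under 4, and -0.08 in mutants and -0.09 in controls at 10 or more. The lines for the lowest and highest range are drawn over 2 to 4 and 10 to 12.

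Other genes of the pathway passed no test between genotypes at either stage, and Aifm1 passed within batch 2. Of 9 tested assembly factors with other symbols, 0 were called at either stage in limma. Of all genes, 0.099% were called at E13.5 and 2.63% at E14.5. Above 0 were 2 of the 9 at E13.5, where 31.5% of all genes were, and 6 at E14.5, where 56% were. Timmdc1, which helps build the membrane arm, averaged 5.37 in E14.5 mutants and 5.79 in E14.5 controls, a difference of -0.42 ± 0.11 with an adjusted p of 0.0593 in limma, and it was at -0.59 ± 0.17 in batch 1 and -0.31 ± 0.14 in batch 2. Ecsit, a partner of Ndufaf1, was at -0.19 ± 0.10 at E13.5, and Aifm1, needed for the import of some subunits, at 0.15 ± 0.07 at E14.5. Within the batches Aifm1 was at -0.09 ± 0.08 in batch 1 and 0.32 ± 0.06 in batch 2 (adjusted p of 0.0357 in limma), the reverse of most complex I genes, and the difference between these effects had an adjusted p of 0.301 in limma. The mitochondrially encoded core subunit ND5 was at 0.20 ± 0.11 at E13.5 and -0.04 ± 0.08 at E14.5.

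Of 14 regulators of mitochondrial genes, 13 were tested and 0 were called in limma at either stage. Differences were above 0 for 1 of 13 at E13.5, where 31.5% of all genes were, and for 8 of 13 at E14.5, where 56% were. At E13.5 the nuclear receptor Esrrg was at -0.39 ± 0.13 (adjusted p of 0.379 in limma) and its coactivator Ppargc1a at -0.28 ± 0.12 (adjusted p of 0.47 in limma). Complex II, which feeds electrons to ubiquinone beside complex I, had 0 of 4 subunits called. Sdha was at 0.10 ± 0.05 at E13.5, and Sdhb at 0.08 ± 0.04 at E14.5.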

How the data were processed

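Total RNA of palate mesenchyme was measured on Affymetrix arrays. The deposited values are log2 expression values made by the authors with GCRMA, per the submitters' processing notes. Its version and settings are not stated here. The labels' protocols name tissue and the series text primary cells, so which was lysed is unclear. The platform annotation gave 1 gene for 34945 of 45101 probe sets, several for 932 and none for 9160, and 64 were controls.

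Differences were tested with limma 3.58.1 (R 4.3.3, lmFit and eBayes) in 1 fit of 16 arrays with 4 groups and batch within E14.5, with Benjamini-Hochberg adjustment over 11115 genes. A second fit took the genotype effect apart in each batch. Errors are moderated SEs. The number of arrays limits the precision. The script was tested on simulated arrays. Figures were drawn with Python 3.11.15 and matplotlib 3.10.9.

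Values of every array are given for called genes, for the 3 smallest p per genotype contrast, for the highest and lowest signal, for the largest batch difference and for the largest changes between stages. Ndufs4 was added after its values were seen. The genes, lists and motifs were chosen with earlier results of these data known. Replicate numbers did not pair the arrays: same-numbered deviations correlated at -0.169, 0.166 and -0.079 at E13.5 and at -0.445 to 0.027 at E14.5.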

Additional observations from a re-analysis of the deposited data

How the results depend on the processing

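At E13.5 the median difference of the 43 genes was -0.0319 when arrays were centred on all probe sets and 0.0705 when centred on the genes tested, and no complex I gene was called in any of 35 alternatives. At E14.5 the median was 0.144 in batch 1 and -0.0112 in batch 2, whether each batch was taken alone or the effects were fitted apart. The 1 called gene became 0 with the mean over probe sets, no filter, the replicate block, each stage fitted alone, batch 1 alone, batch 2 alone, a sex term, controls 1 and 3 left out, probe sets without a letter suffix alone, or centring on the genes tested, and 0 to 1 when single arrays were left out. With the replicate block Ndufv1 had an adjusted p of 0.119 in limma, and the block changed no other genotype call. The difference between the stages' effects had a median of 0.107 centred on all probe sets, 0.149 in batch 1, -0.015 in batch 2 and -0.014 centred on the genes tested, and was not run with each stage fitted alone. For E14.5 minus E13.5 in mutants the median was -0.36 with the mean over probe sets, 1.56 centred on all probe sets, 0.267 centred on the genes tested, -0.177 in batch 1, -0.266 in batch 2 and -0.33 with probe sets without a letter suffix. It was -0.268 to -0.206 when single arrays were left out. In controls it was -0.40 with the mean over probe sets, -0.245 with a filter at a log2 value of 6 and likewise without Ndufa4 and Ndufa4l2, 1.45 and 0.286 under the same centrings, -0.326 in batch 1 and -0.38 without letter suffixes. The cause of these moves was not tested. Centring on the genes tested and the fit of each batch effect apart were added after the data were seen.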
